A study of Homo sapiens with 6 samples.

Results

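The 38 genes described here serve protein folding, stress signalling and transport at the endoplasmic reticulum (ER), the compartment in which secreted and membrane proteins are made. They were taken by gene name from the deposited table, leaving out rows placed on alternate or unplaced chromosome sequences, and each name gave 1 gene of the 64253 in the table. All 38 were among the 20992 genes that passed the filter on low counts. RNA was sequenced from H69 cells, a line of human cholangiocytes (the epithelial cells of bile ducts) immortalised with a viral T antigen, at passages 30 to 32. In the first group, 3 samples received recombinant human TGF-beta (10 ng/ml, 16 h), and in the second, 3 samples received vehicle, whose makeup the labels do not state. The study asked which genes change expression under TGF-beta. The labels do not say whether the 3 samples of a group came from separate cultures, so the spread behind each p-value may be a technical one.

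Proteins enter the ER through a channel in its membrane, fold with the help of chaperones, lectins and disulfide isomerases, and leave in vesicles coated with the COPII proteins, while proteins that fail to fold are drawn back to the cytosol and degraded. When unfolded proteins build up, the membrane sensors IRE1, PERK and ATF6 act through the transcription factors XBP1, ATF4 and cleaved ATF6 to raise the genes of folding, degradation and transport, a programme called the unfolded protein response. PERK shares its branch, the integrated stress response, with kinases that sense a lack of amino acids or heme or the presence of viral RNA, so ATF4 and its targets can respond to other signals than the ER.

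The 6 libraries held 37205862 to 47314515 counts with TGF-beta and 39971568 to 54160521 with vehicle. Vehicle replicate 1 stood apart from the other vehicle libraries, since its counts differed from theirs by a chi-square of 24.1 and 26.6 for each degree of freedom over all genes, where the other pairs within a group gave 2.50 to 4.72. Of 9 cholangiocyte markers, the keratin genes KRT7, KRT8, KRT18 and KRT19 made up nearly all of a summed level of 574 to 621 RPKM (reads scaled to gene length and library size) with TGF-beta and 429.5 to 469 RPKM with vehicle. KRT7 and KRT8 were called higher (log2 fold changes of 0.95 and 0.51), KRT18 and KRT19 were not called (-0.03 and -0.17), and EPCAM and SOX9 were called lower (-0.48 and -1.76). CFTR had no count in any library, and SPP1 had at most 4. The 4 hepatocyte markers summed to at most 0.0536 RPKM, the 3 endothelial markers to at most 0.12 RPKM, and the 3 leukocyte markers to 1.67 to 1.95 RPKM with TGF-beta and 1.80 to 2.12 RPKM with vehicle, with PTPRC at 0 to 7 counts. The 4 fibroblast and stellate cell markers summed to 7.59 to 8.15 RPKM with TGF-beta and 3.70 to 4.46 RPKM with vehicle, nearly all of it PDGFRB, while DCN, LUM and DES stayed at or below 0.0326 RPKM. The part of these markers in the results below was not tested, and in bulk RNA fewer cells of a type and less RNA per cell cannot be told apart.

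Most of the ER genes were higher with TGF-beta, by modest amounts. Of the 38, 28 were called higher and 2 lower, and 8 were not called, by the quasi-likelihood test of edgeR, with p-values adjusted by Benjamini-Hochberg over all genes tested and a threshold of 0.05. Over all genes tested, 19.7% were called higher and 20.4% lower. The 38 were chosen with earlier results of these data known, so contrasts with all genes describe the list and were not tested. The 38 were also more abundant. Their median vehicle level was 83.7 CPM (counts scaled to library size), against 11.7 CPM for all genes tested, and the part of abundance in the calls was not tested. The 3 TGF-beta values lay wholly above the 3 vehicle values for 32 of the 38 and wholly below them for 2, where over all genes the shares were 25.4% and 26.9%. The median log2 fold change of the 38 was 0.29, beside -0.01 for all genes tested, and a single gene, CHAC1, was called with a change of at least 2-fold. With library totals in place of TMM scaling (edgeR's trimmed-mean correction for library makeup) the median over all genes moved to -0.14. Of the 38, 21 were then called higher and 4 lower, where of all 20992 genes 2698 were called higher and 7282 lower. The sign turned for DNAJB9, CANX, PDIA6, P4HB and SYVN1. The 38 genes together took 0.918, 0.908 and 0.907% of all counts in the TGF-beta libraries, against 0.822, 0.830 and 0.820% in the vehicle libraries. The groups did not overlap in this share. A plain share of counts is on the scale of library totals, and the most abundant of the 38 weigh most in it.

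**Figure D1:**
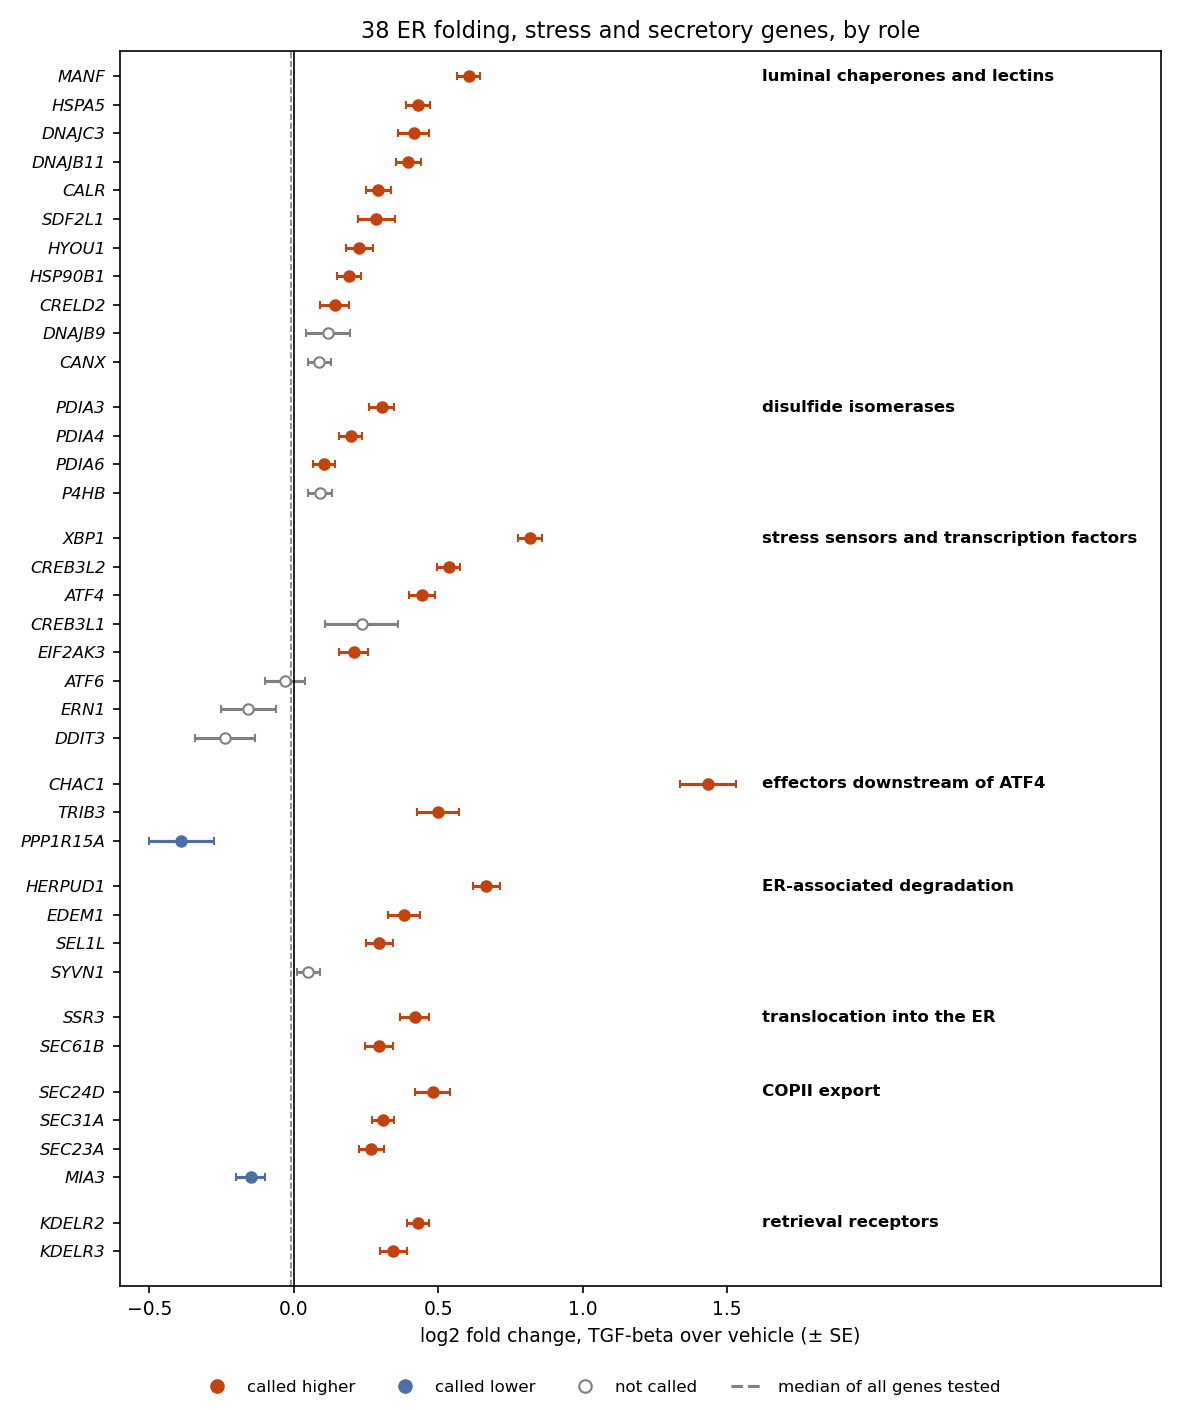
Log2 fold change of TGF-beta over vehicle for the 38 ER genes, grouped by role; bars are the standard error of the fitted value, filled points are called at an adjusted p under 0.05, and the dashed line is the median of all genes tested. The values run from -0.39 for PPP1R15A to 1.43 for CHAC1, and 33 of the 38 lie above 0.

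The DNA before these genes is shown because the transcription factors of the unfolded protein response bind known short elements in it. The ER stress response element, spelled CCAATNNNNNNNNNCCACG, is the site at which ATF6 acts together with NF-Y. RefSeq promoter sequences (GRCh38.p14, 250 bases before to 50 bases after each start) were found for 35 of the 38 genes, all except KDELR2, PDIA3 and SEC24D. Some genes have several starts, some of them inside the gene of the deposited table, and a match at any start was counted. Searched on both strands, the element was present in 7 of those 35, compared with 25 of the 27305 genes in the whole promoter table (0.0916%). This count uses sequence alone and no expression value. The 38 include known genes of the unfolded protein response, so the contrast describes the list and was not tested. The 8 copies are set out below, each read 5′ to 3′ in the direction of the motif, with its outer blocks in capitals and its 9 spacer bases in lower case.
HSPA5 (chr9:125241391-125241409, minus strand): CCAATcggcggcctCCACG
HSP90B1 (chr12:103930216-103930234, plus strand): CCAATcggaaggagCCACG
HSP90B1 (chr12:103930321-103930339, minus strand): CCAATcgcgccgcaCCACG
CALR (chr19:12938384-12938402, minus strand): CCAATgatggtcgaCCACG
CANX (chr5:179698778-179698796, plus strand): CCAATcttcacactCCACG
CRELD2 (chr22:49918554-49918572, minus strand): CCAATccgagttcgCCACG
PDIA6 (chr2:10812853-10812871, minus strand): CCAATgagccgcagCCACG
XBP1 (chr22:28800603-28800621, minus strand): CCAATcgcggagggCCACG
HSP90B1 carried 2 copies and each of the other genes 1. Of these 7 genes 6 were called higher and CANX was not called, with log2 fold changes between 0.09 for CANX and 0.82 for XBP1 and a median of 0.19. The other 28 genes with a promoter sequence had a higher median, 0.29, and 19 of them were called higher. The spacers differ between all 8 copies.

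A second form, ATTGGNCCACG, was present in HERPUD1, HYOU1 and SDF2L1 and in 0.0696% of all genes of the table. The core TGACGTGG, which XBP1 and ATF6 can bind, was present in HYOU1, KDELR3, SEC23A and SSR3 and in 0.927% of all genes, and the HYOU1 copy overlaps its second-form element. The composite site TGATGNAA, to which ATF4 binds with a C/EBP partner, was present in CHAC1, CREB3L2 and HERPUD1 and in 4.46% of all genes. The CREB3L2 match begins 16 bases after a start inside the gene, and its outer start held none of the 4 motifs. The SSR3 match to the core likewise lies at a start inside the gene, and its outermost start held none. The ER stress response elements of PDIA6 and CANX, and the SEC23A match to the core, also lie at starts inside the gene of the deposited table. The outermost RefSeq starts of PDIA6 and CANX held none of the 4 motifs. Of the 15 ER genes with any of these 4 motifs, 14 were called higher and 0 lower, and of the 20 with a promoter sequence and none of the motifs 11 were called higher and 2 lower. This difference was not tested. A match says only that these letters are present; whether a factor binds there was not analysed here. Sequence before the start is given for XBP1 and HSPA5, which hold the first element, for HERPUD1, which holds the second form and the ATF4 composite site, and for CHAC1, which holds the composite site; capitals mark the motifs, each line runs 5′ to 3′ on the gene's strand, and a composite site on the other strand reads TTGCATCA.
XBP1 (chr22:28800598-28800819, minus strand): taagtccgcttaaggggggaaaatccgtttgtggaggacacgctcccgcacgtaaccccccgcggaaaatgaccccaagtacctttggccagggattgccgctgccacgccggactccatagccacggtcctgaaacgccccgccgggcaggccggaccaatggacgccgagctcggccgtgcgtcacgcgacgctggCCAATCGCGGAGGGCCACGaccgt
HSPA5 (chr9:125241344-125241593, minus strand): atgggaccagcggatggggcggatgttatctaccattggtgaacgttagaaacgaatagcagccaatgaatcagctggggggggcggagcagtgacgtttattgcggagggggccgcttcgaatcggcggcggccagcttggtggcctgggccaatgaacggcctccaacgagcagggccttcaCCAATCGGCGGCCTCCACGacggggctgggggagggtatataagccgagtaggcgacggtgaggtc
HERPUD1 (chr16:56931892-56932047, plus strand): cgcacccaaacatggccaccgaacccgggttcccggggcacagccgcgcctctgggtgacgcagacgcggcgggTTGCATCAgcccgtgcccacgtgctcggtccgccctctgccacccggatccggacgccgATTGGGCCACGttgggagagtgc
CHAC1 (chr15:40953251-40953280, plus strand): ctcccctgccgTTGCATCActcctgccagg
The element of HSPA5 begins 66 bases before the RefSeq start and that of XBP1 52 bases before it. In HERPUD1 the composite site begins 176 bases and the second-form element 117 bases before the start, and in CHAC1 the composite site begins 209 bases before it. The deposited table places the start of CHAC1 upstream of the stretch shown, so a short stretch is given for it. Which start these cells use was not analysed here.

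The luminal chaperones and lectins hold newly made chains in the ER until they fold. Of these 11 genes 9 were called higher and 2 were not called, with a median log2 fold change of 0.29. HSPA5 encodes BiP, the main Hsp70 of the ER, which binds unfolded chains and holds the stress sensors inactive. It measured 1057, 1038 and 1073 CPM (counts scaled to library size, after TMM) in the TGF-beta libraries, against 802, 797 and 753 CPM in the vehicle libraries. The groups were well apart, and the log2 fold change was 0.43 (SE 0.04, adjusted p = 2.31e-05 by edgeR). MANF, a small secreted protein that stabilises BiP with its bound chains, rose the most in this group. Its values were 84.3, 82.8 and 85.4 CPM with TGF-beta and 54.7, 56.5 and 54.8 CPM with vehicle. Within each group these values lay within 3 CPM of each other, and the log2 fold change was 0.60 (SE 0.04, adjusted p = 1.49e-06).

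Most cochaperones that steer BiP rose as well. DNAJC3, which feeds substrates to BiP and was first known as an inhibitor of eIF2alpha kinases, had 125, 112 and 113 CPM with TGF-beta and 91.4, 86.8 and 84.2 CPM with vehicle. Every TGF-beta value was above every vehicle value, and the log2 fold change was 0.42 (SE 0.05, adjusted p = 0.000152). DNAJB11, another J-domain partner of BiP, had 102, 102 and 101 CPM with TGF-beta and 80.3, 76.8 and 74.3 CPM with vehicle, a log2 fold change of 0.40 (SE 0.04, adjusted p = 4.98e-05). The TGF-beta libraries were nearly level for this gene and the vehicle libraries a little less so. DNAJB11 overlaps TBCCD1, which stood at 16.5% of its mean level and was called higher. SDF2L1, which forms a complex with DNAJB11, had 22.2, 22.6 and 23.7 CPM with TGF-beta and 19.2, 17.5 and 19.4 CPM with vehicle, and its log2 fold change was 0.29 (SE 0.06, adjusted p = 0.00433). HYOU1, a large Hsp70 relative that frees ADP from BiP, had 276, 279.6 and 290.1 CPM with TGF-beta and 227, 249 and 247 CPM with vehicle, with a log2 fold change of 0.23 (SE 0.05, adjusted p = 0.0033). Neither gene's groups overlapped. HYOU1 overlaps an antisense gene, RP11-110I1.6, which stood at 8.93% of its mean level and was called higher. DNAJB9, a J-domain protein that promotes BiP's hold on the sensor IRE1, had 23.2, 20.2 and 20.6 CPM with TGF-beta and 20.4, 20.5 and 17.99 CPM with vehicle. Its groups overlapped and it was not called (log2 fold change 0.12, SE 0.08, adjusted p = 0.245), and it overlaps PNPLA8 and THAP5, whose mean levels of 58.9 and 26.3 CPM exceed its own 20.5 CPM.

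HSP90B1 and CALR, the genes of the abundant Hsp90 of the ER and of the calcium-binding lectin calreticulin, also rose. HSP90B1 had 850.1, 815 and 808 CPM with TGF-beta and 716, 738 and 711 CPM with vehicle (log2 fold change 0.19, SE 0.04, adjusted p = 0.00396). CALR had 1122, 1159 and 1159 CPM with TGF-beta and 898, 960.4 and 952 CPM with vehicle (log2 fold change 0.29, SE 0.04, adjusted p = 0.0004). For both, all TGF-beta libraries were above all vehicle libraries. CALR overlaps an antisense gene, CTC-425F1.4, which stood at 11.5% of its mean level and was called higher. CANX, the membrane-bound partner of calreticulin in the same lectin cycle, had 781, 762 and 748 CPM with TGF-beta and 713, 728 and 713 CPM with vehicle. These groups did not overlap, but the difference was not called (log2 fold change 0.09, SE 0.04, adjusted p = 0.101). CRELD2, a secreted ER stress protein, had 29.8, 30.3 and 31.4 CPM with TGF-beta and 28.1, 28.0 and 26.8 CPM with vehicle. Its call was narrow (log2 fold change 0.14, SE 0.05, adjusted p = 0.0457), was lost under 9 of the 12 alternative settings, among them the removal of any single library other than vehicle replicate 1 (adjusted p 0.0139 to 0.821 over the 12), and concerns a gene that overlaps ALG12, a gene of about the same level. HSP90B1, HYOU1 and SDF2L1 were not called either when library totals replaced TMM.

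Disulfide isomerases make and rearrange the bonds between cysteines. Of the 4 among the 38 genes, 3 were called higher, with a median log2 fold change of 0.15. PDIA3, which works on glycoproteins held by calreticulin and calnexin, had 562, 545 and 536 CPM with TGF-beta and 462, 436 and 432 CPM with vehicle. All TGF-beta libraries were higher (log2 fold change 0.30, SE 0.04, adjusted p = 0.000309). PDIA3 overlaps CATSPER2P1, which stood at 5.18% of its mean level and was called higher. PDIA4 had 282, 285 and 292 CPM with TGF-beta and 245, 256 and 249 CPM with vehicle (log2 fold change 0.20, SE 0.04, adjusted p = 0.0028), a call that library totals did not give. PDIA6, which also acts on the sensor IRE1, had 399.5, 389 and 388 CPM with TGF-beta and 360.0, 369 and 364 CPM with vehicle. Its adjusted p of 0.04997 lay at the threshold (log2 fold change 0.11, SE 0.04). The call was lost under 8 of the 12 alternatives, again including removal of any single library other than vehicle replicate 1 (adjusted p 0.0247 to 0.692 over the 12), and with library totals the direction turned, at a log2 fold change of -0.02. PDIA6 overlaps ATP6V1C2, which stood at 35.0% of its mean level and was not called. P4HB, the classical protein disulfide isomerase and a subunit of the collagen prolyl hydroxylase, had 960.4, 985 and 1024 CPM with TGF-beta and 912, 945 and 929 CPM with vehicle. It was not called (log2 fold change 0.09, SE 0.04, adjusted p = 0.11), although its groups did not overlap. P4HB overlaps an antisense gene, RP11-498C9.2, which stood at 17.3% of its mean level and was called higher.

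The sensors and transcription factors moved unevenly, with 4 of 8 called higher, 4 not called and a median log2 fold change of 0.22. XBP1, whose mRNA is spliced by IRE1 to give an active factor, rose the most of the 8. It had 182, 186 and 187 CPM in the TGF-beta libraries, against 108, 105 and 101 CPM in the vehicle libraries. The libraries of a group were close together and the groups far apart, a 1.76-fold difference (log2 fold change 0.82, SE 0.04, adjusted p = 1.62e-07). Gene counts do not separate the spliced from the unspliced form. XBP1 overlaps an antisense gene, CTA-292E10.9, at a mean of 192 CPM, which was itself called higher with a log2 fold change of 0.59, and with the strand setting of the counting not given in the sources used here the reads of the pair cannot be told apart.

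ATF4, which is controlled largely through translation of its mRNA, had 364, 368 and 379 CPM with TGF-beta and 259, 281 and 275 CPM with vehicle. All TGF-beta libraries were higher, and the log2 fold change was 0.44 (SE 0.04, adjusted p = 2.4e-05). CREB3L2, a membrane-bound factor of the ATF6 kind that drives genes of secretion in cartilage of mice, had 188, 194 and 187 CPM with TGF-beta and 129.5, 133 and 130.0 CPM with vehicle. Its vehicle libraries agreed closely, and the log2 fold change was 0.54 (SE 0.04, adjusted p = 2.67e-06). Its relative CREB3L1, known for driving collagen genes in bone of mice, had 44.8, 45.6 and 47.2 CPM with TGF-beta and 31.0, 42.7 and 43.0 CPM with vehicle. Vehicle replicate 1 was far below the other vehicle libraries, the groups did not overlap, and the gene was not called (log2 fold change 0.24, SE 0.13, adjusted p = 0.191). Without that library the log2 fold change was 0.10, and over the 12 alternatives the adjusted p ran from 0.00214, without the filter on low counts, to 0.501.

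Among the sensors, EIF2AK3, the gene of PERK, had 35.5, 35.3 and 33.2 CPM with TGF-beta and 30.5, 30.1 and 29.5 CPM with vehicle. It was called higher (log2 fold change 0.21, SE 0.05, adjusted p = 0.00748), though not with library totals. EIF2AK3 overlaps an antisense gene, AC104134.2, at 23.1% of its mean level, which was itself called higher with a log2 fold change of 0.24. As for XBP1, the reads of the pair cannot be told apart. ERN1, the gene of IRE1, was the lowest of the 38 per length and had 10.8, 10.3 and 9.57 CPM with TGF-beta and 9.83, 12.2 and 12.1 CPM with vehicle. The groups overlapped through vehicle replicate 1 and ERN1 was not called (log2 fold change -0.16, SE 0.10, adjusted p = 0.221), but without that library it was called lower (log2 fold change -0.25, adjusted p = 0.00498, in a range of 0.00498 to 0.519 over the 12 alternatives). ATF6 had 62.4, 58.2 and 60.6 CPM with TGF-beta and 69.1, 58.1 and 58.0 CPM with vehicle, and its groups overlapped (log2 fold change -0.03, SE 0.07, adjusted p = 0.757). DDIT3 encodes CHOP, the factor of the ATF4 branch linked to cell death. It had 6.33, 6.60 and 5.57 CPM with TGF-beta and 6.37, 7.79 and 7.62 CPM with vehicle. Here too vehicle replicate 1 lay among the TGF-beta libraries, and the gene was not called (log2 fold change -0.24, SE 0.11, adjusted p = 0.0979), while without that library it was called lower (log2 fold change -0.32, adjusted p = 0.0039, in a range of 0.0039 to 0.308 over the 12 alternatives). Both ERN1 and DDIT3 were called lower with library totals too. DDIT3 overlaps MARS, which averaged 160.1 CPM and was called higher with a log2 fold change of 0.26.

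The 3 effectors downstream of ATF4 parted in direction. CHAC1 encodes an enzyme that breaks down glutathione. It had 18.4, 18.4 and 21.5 CPM in the TGF-beta libraries, against 6.27, 7.44 and 7.79 CPM in the vehicle libraries. The lowest TGF-beta library was above every vehicle library, and the 2.70-fold difference was the largest among the 38 (log2 fold change 1.43, SE 0.10, adjusted p = 1.37e-06). TRIB3, a pseudokinase that holds ATF4 and AKT in check, had 96.1, 99.7 and 106 CPM with TGF-beta and 63.0, 75.2 and 75.6 CPM with vehicle. Its groups did not overlap, with vehicle replicate 1 the lowest (log2 fold change 0.50, SE 0.07, adjusted p = 0.00052). PPP1R15A encodes GADD34, which brings a phosphatase to eIF2alpha and so ends the block on translation. It fell, with 36.2, 36.6 and 38.5 CPM with TGF-beta and 39.6, 52.0 and 54.0 CPM with vehicle. Vehicle replicate 1 was only just above the TGF-beta libraries (log2 fold change -0.39, SE 0.11, adjusted p = 0.032), and leaving out any single library other than vehicle replicate 1 ended the call, with adjusted p of 0.0747 to 0.107.

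**Figure D2:**
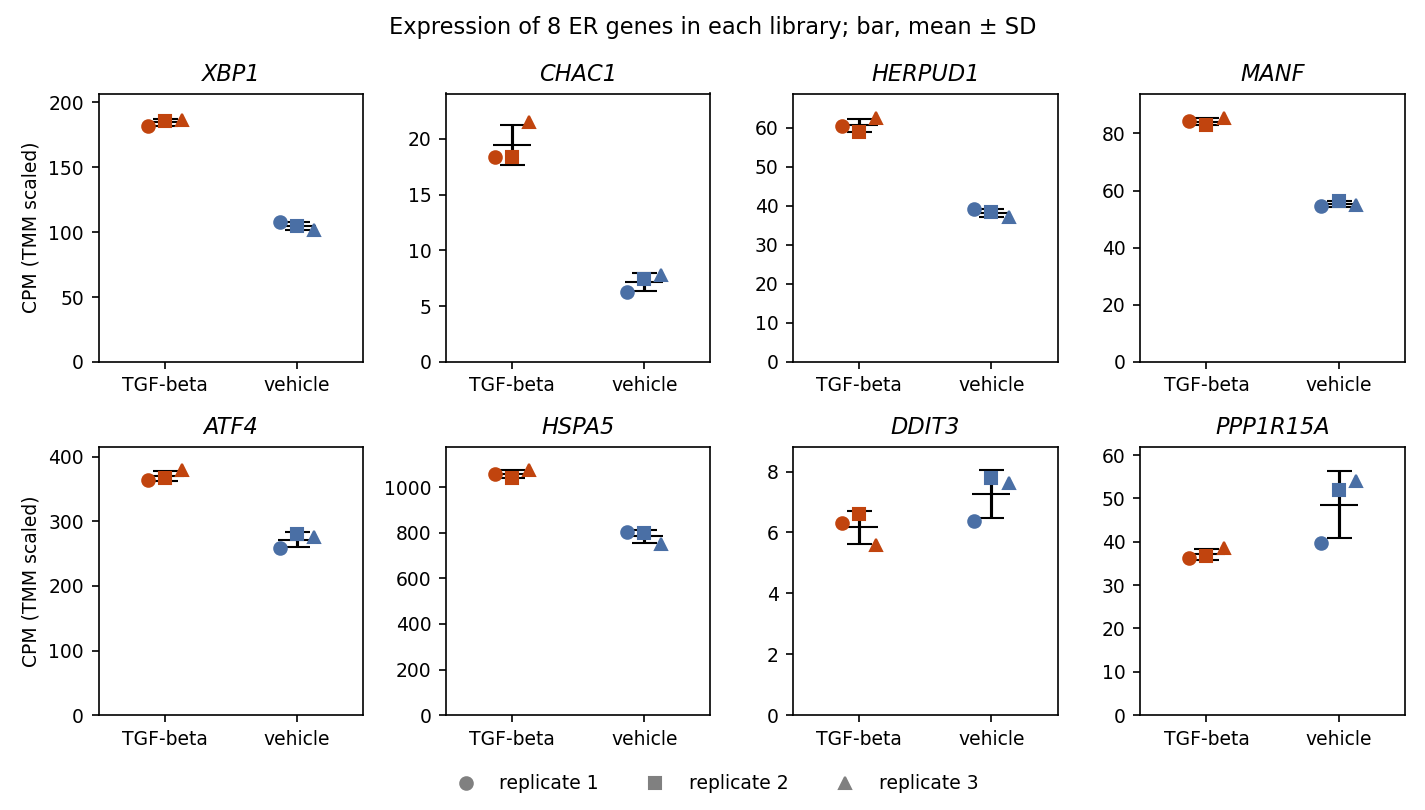
CPM after TMM scaling of 8 ER genes in each library, with the mean and SD of 3 libraries per group; symbols mark the replicate number. XBP1, CHAC1, HERPUD1, MANF, ATF4 and HSPA5 show separate groups with TGF-beta higher, DDIT3 shows overlapping groups, and PPP1R15A shows vehicle replicate 1 just above the TGF-beta libraries.

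ER-associated degradation removes proteins that cannot fold. Of the 4 genes 3 were called higher. HERPUD1, a membrane protein that organises the degradation complex, had 60.5, 59.1 and 62.4 CPM in the TGF-beta libraries, against 39.1, 38.5 and 37.1 CPM in the vehicle libraries. The groups were far apart and the difference was 1.59-fold (log2 fold change 0.67, SE 0.05, adjusted p = 1.63e-06). EDEM1, which marks glycoproteins for degradation by trimming their mannose, had 70.5, 72.3 and 64.6 CPM with TGF-beta and 50.7, 54.3 and 54.1 CPM with vehicle (log2 fold change 0.38, SE 0.05, adjusted p = 0.000307). SEL1L, the adaptor of the ubiquitin ligase HRD1, had 208, 203 and 193 CPM with TGF-beta and 171, 162 and 159 CPM with vehicle (log2 fold change 0.30, SE 0.05, adjusted p = 0.000553). In both genes TGF-beta replicate 3 was the lowest of its group and still above every vehicle library. SYVN1, which encodes HRD1 itself, had 92.3, 92.2 and 93.0 CPM with TGF-beta and 90.5, 87.5 and 90.2 CPM with vehicle, and was not called (log2 fold change 0.05, SE 0.04, adjusted p = 0.357). It overlaps FAU and MRPL49, both of higher mean level, at 204 and 106 CPM.

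Both genes of translocation into the ER among the 38 rose. SEC61B, the beta subunit of the membrane channel, had 89.9, 85.2 and 91.1 CPM with TGF-beta and 76.3, 70.0 and 70.6 CPM with vehicle (log2 fold change 0.29, SE 0.05, adjusted p = 0.000931). SSR3, a subunit of the translocon-associated protein complex, had 235, 218 and 216 CPM with TGF-beta and 175, 166 and 159.6 CPM with vehicle (log2 fold change 0.42, SE 0.05, adjusted p = 0.000104). In neither gene did the groups overlap.

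Of the 4 COPII export genes, the 3 coat subunits rose and the cargo receptor fell. SEC24D, which picks cargo and is needed for procollagen export, had 83.5, 85.5 and 86.4 CPM with TGF-beta and 55.3, 64.5 and 63.3 CPM with vehicle. Its vehicle replicate 1 was the lowest of all (log2 fold change 0.48, SE 0.06, adjusted p = 0.000114). SEC23A, the inner coat partner of SEC24D, had 263, 254 and 253 CPM with TGF-beta and 222, 210.2 and 207 CPM with vehicle (log2 fold change 0.27, SE 0.04, adjusted p = 0.000657). SEC31A, of the outer cage, had 203, 203 and 204 CPM with TGF-beta and 167, 164 and 161 CPM with vehicle (log2 fold change 0.31, SE 0.04, adjusted p = 0.000118). The groups did not overlap in any of these 3. SEC31A overlaps THAP9-AS1, at 17.2% of its mean level, and MIA3 overlaps RP11-378J18.8, at 9.37%. Neither of these overlapping genes was called. MIA3 encodes TANGO1, the receptor that loads collagens too long for an ordinary vesicle at ER exit sites. It had 76.9, 72.0 and 67.8 CPM with TGF-beta and 79.7, 80.2 and 80.2 CPM with vehicle. The vehicle libraries were level and each TGF-beta library was below them; MIA3 fell by 9.79% in the fit (log2 fold change -0.15, SE 0.05, adjusted p = 0.0397), and the call was lost with RLE size factors, with DESeq2 and when TGF-beta replicate 2 or 3 or vehicle replicate 2 or 3 was left out, with adjusted p of 0.00163 to 0.155 over the 12 alternatives.

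The KDEL receptors return escaped chaperones from the Golgi to the ER by their end signal, and both of those among the 38 rose. KDELR1, which is in the list of COPI and other retrieval genes, was also called higher (log2 fold change 0.37). KDELR2 had 414, 414 and 408 CPM with TGF-beta and 305, 303 and 309.6 CPM with vehicle (log2 fold change 0.43, SE 0.04, adjusted p = 9.46e-06). KDELR3 had 37.95, 37.4 and 37.4 CPM with TGF-beta and 28.6, 30.4 and 29.8 CPM with vehicle (log2 fold change 0.34, SE 0.05, adjusted p = 0.000247). Libraries of a group agreed closely in both genes. KDELR2 overlaps DAGLB, which stood at 17.2% of its mean level and was not called. KDELR3 overlaps DDX17, which averaged 498 CPM and was not called.

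Per length, on the RPKM scale that the authors deposited, the ER genes spanned a wide range of levels. CALR was the highest in both groups, with 175 ± 2.95 RPKM with TGF-beta and 151 ± 5.24 RPKM with vehicle (SD, n = 3 each). HSPA5 came next, with 112 ± 1.43 RPKM with TGF-beta and 88.0 ± 2.81 RPKM with vehicle, then P4HB and HSP90B1. ERN1 was the lowest in both groups, with 0.389 ± 0.0252 RPKM with TGF-beta and 0.460 ± 0.0539 RPKM with vehicle. Among the sensors EIF2AK3 stood at 2.63 ± 0.109 RPKM with TGF-beta and 2.42 ± 0.0397 RPKM with vehicle, and ATF6 at 3.16 ± 0.109 RPKM with TGF-beta and 3.43 ± 0.360 RPKM with vehicle. CHAC1 had rank 30 of 38 with TGF-beta and rank 37 with vehicle, at 3.90 ± 0.344 RPKM with TGF-beta and 1.53 ± 0.169 RPKM with vehicle. PPP1R15A had rank 26 with TGF-beta and rank 22 with vehicle. Some neighbours in this order differ by less than either SD, as ATF6 (3.16 ± 0.109 RPKM) and DNAJB9 (3.11 ± 0.244 RPKM) do with TGF-beta. The RPKM values are not TMM scaled, and on them CANX stood at 50.6 ± 1.31 RPKM with TGF-beta and 50.5 ± 0.381 RPKM with vehicle.

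**Figure D3:**
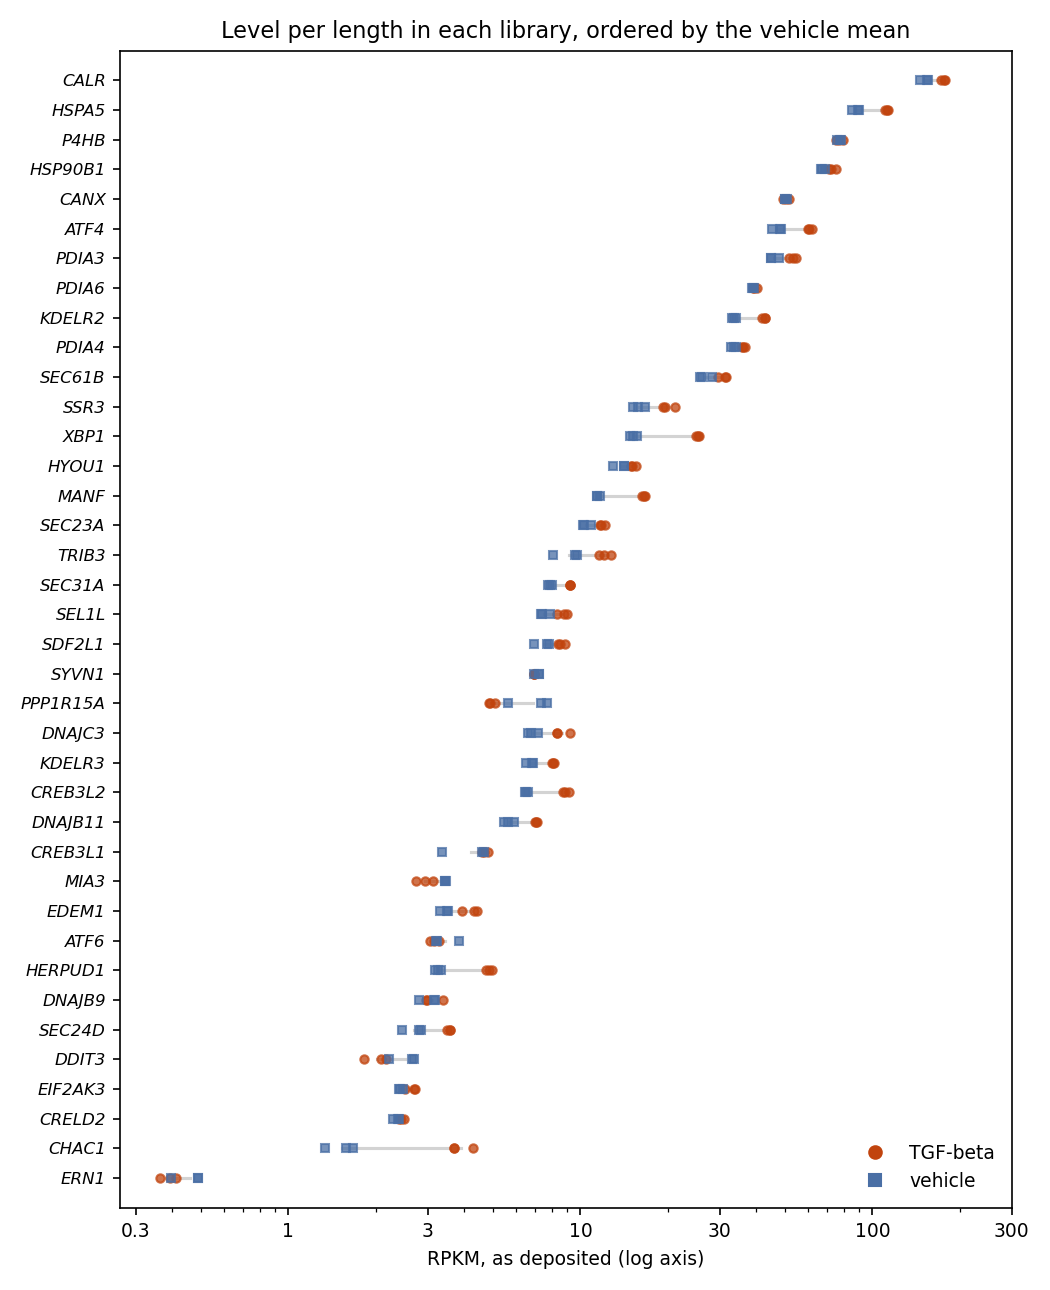
RPKM as deposited, on a log axis, for the 38 ER genes in each of the 6 libraries, ordered by the vehicle mean; circles are TGF-beta, squares are vehicle and a line joins the group means. CALR is at the top, at 175 RPKM with TGF-beta and 151 RPKM with vehicle, ERN1 at the bottom, and CHAC1 shows the widest gap.

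Other genes of the same pathways, taken from 8 lists of 186 genes, all of which were tested, moved less uniformly. Together 73 were called higher and 23 lower, and the log2 fold changes of the 186 had a median of 0.09. The shares over all genes tested were 19.7% higher and 20.4% lower. With library totals 2698 of all 20992 genes were called higher and 7282 lower. Without vehicle replicate 1 these counts were 5428 and 5556 of 21781. These lists, too, were chosen with earlier results of these data known. The list most often called higher was that of other ATF4 and integrated stress response genes, with 17 of 30 higher and 2 lower and a median of 0.35, and 14 higher and 3 lower with library totals. Its count of lower genes was 1 when TGF-beta replicate 2 or 3 or vehicle replicate 2 was left out. In it SLC7A5, the transport subunit of a leucine exchanger, averaged 582 ± 31.8 CPM with TGF-beta and 148 ± 4.24 CPM with vehicle (log2 fold change 1.98, SE 0.05, adjusted p = 1.33e-09), and ATF5, a factor related to ATF4, fell to 46.1 ± 1.99 CPM with TGF-beta, against 54.5 ± 2.32 CPM with vehicle. Of 13 other ER stress transcription factors and their proteases, by contrast, 1 was called higher and 2 lower, with a median of -0.09. Those counts were 0 and 6 with library totals, and 3 and 6 without vehicle replicate 1, and no gene was called higher without TGF-beta replicate 3 or vehicle replicate 2. CREB3 rose there, with 103 ± 3.57 CPM with TGF-beta and 92.3 ± 1.84 CPM with vehicle. CREB3L4 fell, with 7.67 ± 0.544 CPM with TGF-beta and 11.3 ± 1.10 CPM with vehicle.

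Other chaperones and folding enzymes numbered 36, of which 12 were called higher and 5 lower (median log2 fold change 0.04), or 8 and 11 with library totals, and 8 were called lower without vehicle replicate 1. FKBP11, a prolyl isomerase of the ER, rose to 25.8 ± 0.178 CPM with TGF-beta, against 17.8 ± 0.750 CPM with vehicle. ERO1B, an oxidase that recharges disulfide isomerases, fell to 6.46 ± 0.101 CPM with TGF-beta, against 10.2 ± 1.79 CPM with vehicle. Over all genes tested 19.7% were called higher and 20.4% lower, and the lower calls of the next list were near that share. With library totals 2698 of all 20992 genes were called higher and 7282 lower. Without vehicle replicate 1, 5556 of 21781 genes were called lower. Of 24 other degradation genes 8 were called higher and 5 lower (median log2 fold change 0.00), or 3 and 8 with library totals. Among them FAM8A1, a cofactor of the HRD1 complex, fell to 7.95 ± 0.599 CPM with TGF-beta, against 18.3 ± 0.431 CPM with vehicle (log2 fold change -1.20, SE 0.07, adjusted p = 6.04e-07). HERPUD2, the relative of HERPUD1, rose with a log2 fold change of 0.38.

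Along the transport route, 12 of 32 other COPII and ER exit genes were called higher and 5 lower (median log2 fold change 0.04), or 3 and 10 with library totals, and 3 were called lower without TGF-beta replicate 3. The shares over all genes tested, for this list and those below, were 19.7% higher and 20.4% lower in the reported fit. With library totals 2698 of all 20992 genes were called higher and 7282 lower. GOSR2, a SNARE of ER to Golgi transport, rose with a log2 fold change of 0.35, and KLHL12, which enlarges COPII vesicles by ubiquitin ligation, fell with -0.38. Of 23 other translocon and signal peptide genes 11 were called higher and 2 lower (median 0.13), or 3 and 6 with library totals, and 1 was called lower without TGF-beta replicate 3 or vehicle replicate 2. TRAM1, a channel-associated membrane protein, averaged 489 ± 25.9 CPM with TGF-beta and 346 ± 57.8 CPM with vehicle, while its relative TRAM2 fell to 243 ± 4.75 CPM with TGF-beta, against 336 ± 1.82 CPM with vehicle. TRAM1 was called higher (log2 fold change 0.50), though not with library totals or when TGF-beta replicate 1 or vehicle replicate 3 was left out. Of 12 oligosaccharyltransferase genes, which attach glycans to new chains, 4 were called higher and 1 lower (median 0.04), or 1 and 4 with library totals, and the count of lower genes was 2 without vehicle replicate 1 and 0 without any other single library. OSTC rose with a log2 fold change of 0.36, and TUSC3 fell with -0.14. Of 16 COPI and other retrieval genes 8 were called higher and 1 lower (median 0.14), or 4 and 1 with library totals. ARFGAP1, which triggers GTP hydrolysis on COPI coats, averaged 296 ± 9.11 CPM with TGF-beta and 131 ± 12.0 CPM with vehicle (log2 fold change 1.17, SE 0.06, adjusted p = 3.05e-07). COPG2 fell with a log2 fold change of -0.25.

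**Figure D4:**
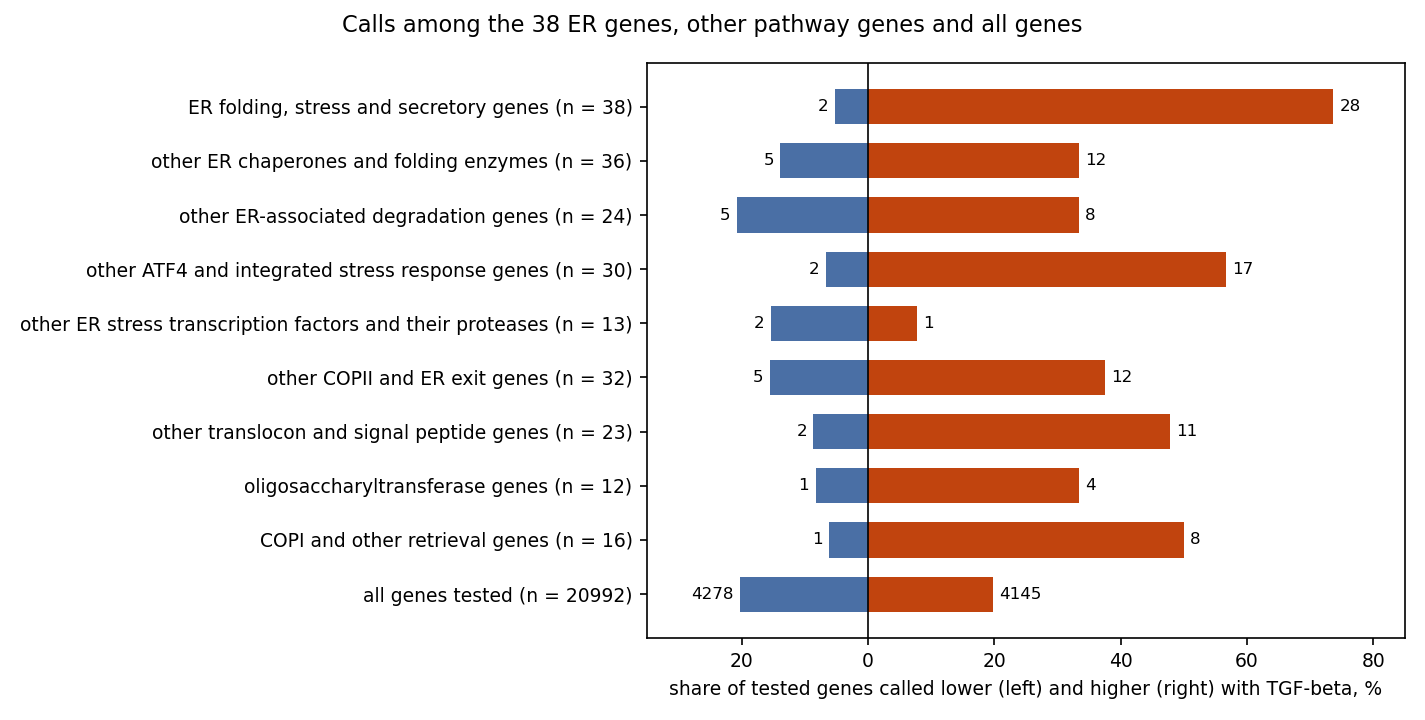
Share of tested genes called lower (left) and higher (right) with TGF-beta, in percent, for the 38 ER genes, the 8 lists of other genes and all genes tested; figures at the bars are gene counts. The ER genes show 28 higher and 2 lower of 38, and all genes 4145 higher and 4278 lower of 20992.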

How the data were processed

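RNA from 6 H69 samples, 3 with TGF-beta and 3 with vehicle, was analysed from 1 deposited table; groups follow the labelled treatment. Per the submitters' processing notes the tools were bcl2fastq, STAR 2.6.1 and featureCounts of Subread, with build hg38; strand setting, multi-mapping and annotation release are not given in the sources used here. The authors deposited raw counts, whole numbers of reads for each gene, per the file headers. The RPKM columns, per the file headers, are the authors' own and rest on library totals of which the table's counts make 43.1 to 43.3% with TGF-beta and 41.9 to 42.1% with vehicle; they were used for levels per length. Gene positions and lengths come from the same table.

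Counts were fitted in R 4.3.3 with edgeR 4.0.16 (limma 3.58.1 loaded): TMM scaling, filterByExpr with a minimum count of 10, robust quasi-likelihood fit with the treatment as its only term, and Benjamini-Hochberg adjustment over 20992 genes, called at 0.05. The standard error is the size of the log2 fold change over the square root of F. The common biological coefficient of variation was 7.88%. The fit was tested on simulated data. Members and lists were chosen with earlier results of these data known. Named beside the 38 genes were, of each list, the called genes with the largest rise and fall among those averaging at least 5 CPM. KDELR1 was named in addition, as a relative of KDELR2 and KDELR3. Of the 38, 16 overlap another tested gene of at least 5% of their mean CPM. Alternatives were RLE size factors, library totals, no filter, a filter of 1 CPM in 3 libraries, DESeq2 1.42.0, a replicate block and leaving out each library. Promoters were searched with Python 3.11.15. A comparison of protein end signals was not run. The value of 1 cholangiocyte marker is not reported here.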

Additional observations from a re-analysis of the deposited data

How the results depend on the processing

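Of the 38 ER genes, 21 were called higher in the reported fit and under all 12 alternatives, and 418 of the 456 pairs of gene and alternative kept their call and direction. The count called higher, 28 as reported, was 28 with RLE size factors, 21 with library totals, 27 without the filter on low counts, 28 with the filter of 1 CPM, 27 with DESeq2 and 26 to 28 without a library. The count called lower, 2 as reported, was 1 with RLE size factors, 4 with library totals, 1 with DESeq2 and 0 to 4 without a library; the 4 without vehicle replicate 1 add ERN1 and DDIT3. PDIA6 reversed with library totals, at a log2 fold change of -0.0207, where the median of all genes was -0.14. Over all genes, the 8423 calls were 8406 with RLE size factors, 9980 with library totals (2698 higher and 7282 lower, so 27.0% of calls were higher instead of 49.2%), 9078 without the filter, 7731 with the filter of 1 CPM, 7334 with DESeq2 and 6259 to 10984 without a library. Counts of the 8 lists of other genes that moved by over 1.5 times with library totals or without a library stand beside each list, and the 1 oligosaccharyltransferase gene called lower was not called without the filter or with DESeq2. The labels state no pairing of same-numbered libraries, and these values do not settle it. Deviations from the group means correlated at 0.0652, 0.0623 and 0.0129 for same-numbered libraries. For libraries of unlike number the correlations ran from -0.0702 to 0.0136. With the replicate block 8577 genes were called, with 26 ER genes higher and 2 lower, and CRELD2 and PDIA6 were no longer called. The cause of these shifts was not tested. CREB3L1, DDIT3 and ERN1 had standard errors of 0.13, 0.11 and 0.10 on the log2 scale, so small differences in them were not detectable here.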
